A study of Helix lucorum with 35 samples.

Results

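The comparison was between untreated nervous tissue of 2 kinds in the terrestrial snail *Helix lucorum*, the medial part of the parietal ganglia (PaG) that was cut out in the second stimulation experiment (E2) and the one-sided PaG tissue used in the first (E1). Every control library of both experiments was taken by its label, which gave 6 E2 control libraries from snails 8 to 13 (2 left, 4 right) and 6 E1 control libraries from snails 1 to 6 (3 left, 3 right), 12 of the 35 samples of the series. All 12 tissues came from isolated nervous systems that had been kept cold for a day in saline rich in calcium and magnesium. They were brought to room temperature and frozen with no drug added. By the methods the opposite side of the snail went on to the activation protocol with anisomycin, caffeine, and serotonin. For snail 12 the series holds no activated library. The snails were adults of *H. lucorum taurica*, with no other strain, genotype, or age given.

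The PaG hold neurons that take part in withdrawal and in the control of visceral organs, together with glia. Among them are the giant Pa2 and Pa3 cells, premotor interneurons that trigger withdrawal of the body and have long been studied in work on learning in this animal. By the methods, the E2 sample was a small medial piece holding mainly the somata of Pa2 and Pa3 (the labels name it by these giant interneurons, and other cells were not removed), whereas the E1 sample was the ganglion of one side as a whole, so it contained the medial part as well, and on the left the adhering visceral ganglion. The legend of the design scheme states instead that the visceral ganglion was not used. No snail gave a library to both groups, so tissue, snail, and experiment cannot be told apart in any value below. In such bulk samples fewer cells of a type and less RNA per cell cannot be told apart.

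Values are counts of RNA-seq reads per contig, a contig being a stretch of transcript put together without a genome. Several contigs can belong to one transcript, so a number of contigs is not a number of genes. The files pair no contig with a gene, and only the contig that the study calls c-fos/fosl2 carries a name here. The tissue labels could therefore not be checked against markers of Pa2 and Pa3, of other neurons, of glia, or of the visceral ganglion. Levels are CPM (counts relative to the library's total), scaled by the trimmed mean of M values (TMM). CPM are not divided by contig length, so where contigs are ranked or classed by CPM the order is one of counts, which grow with length, and not of molecules.

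Library totals ran from 8551169 to 28246558 counts in E2 controls and from 3513906 to 35225724 in E1 controls, where the libraries of snails 5 and 6 were the smallest of the 12 (3513906 and 3581307). The TMM factors did not overlap, with 0.682 to 1.00 in E2 controls (0.831 ± 0.129, SD, n = 6) and 1.02 to 1.40 in E1 controls (1.22 ± 0.164, SD, n = 6). The difference was -0.393 (two-sided exact permutation test, p = 0.00216, the smallest that 6 against 6 libraries can give). The scaling therefore differed along with the groups. Values under library totals are given for the numbers of calls and for the c-fos/fosl2 contig. Classes of level, fold changes of the called contigs, sets chosen by CPM, and the activated libraries are given under TMM only.

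The counts of the E2 medial part were concentrated in fewer contigs. The 100 contigs with the most counts in each library held 38.3 to 46.8% of its counts in E2 controls (41.6 ± 3.17%, SD, n = 6) and 25.0 to 29.1% in E1 controls (27.3 ± 1.30%, SD, n = 6). Every E2 library lay above every E1 library, and the difference was 14.3 percentage points (two-sided exact permutation test, p = 0.00216). With the 10 top contigs the shares were 21.5 ± 2.24% in E2 and 12.7 ± 0.774% in E1 (SD, n = 6 each). The contig with the highest mean CPM was the same in both groups, and a library's own top contig held 3.76 to 7.19% of counts in E2 and 5.46 to 7.17% in E1, which overlapped. Of the 100 contigs highest in mean CPM, 50 were shared between the groups.

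Fewer contigs were detected in the medial part at equal depth. After each library was thinned to the smallest total, 173558 to 219882 contigs had a read in E2 controls (196610 ± 17025, SD, n = 6) and 205881 to 240815 in E1 controls (227931 ± 14651, SD, n = 6). The ranges overlapped, and the difference was -31322 contigs (two-sided exact permutation test, p = 0.013). When 2 reads were required it was -24699 contigs (p = 0.00433, same exact test). Without thinning it was -12727 contigs (p = 0.79, same exact test).

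Libraries resembled those of their own group more than those of the other. The distance, 1 minus Spearman's correlation of CPM across 359416 contigs, averaged 0.463 between E2 and E1 controls, 0.427 within E2, and 0.421 within E1. The mean over pairs from different groups exceeded that over pairs from the same group by 0.0383 (one-sided exact permutation test, p = 0.00216, the smallest possible here because exchanging the 2 groups gives the same value). The nearest library belonged to the same group for 6 of 6 E2 and 6 of 6 E1 libraries, at full and at equal depth. Pairs from different groups and pairs from the same group overlapped in distance.

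**Figure D1:**
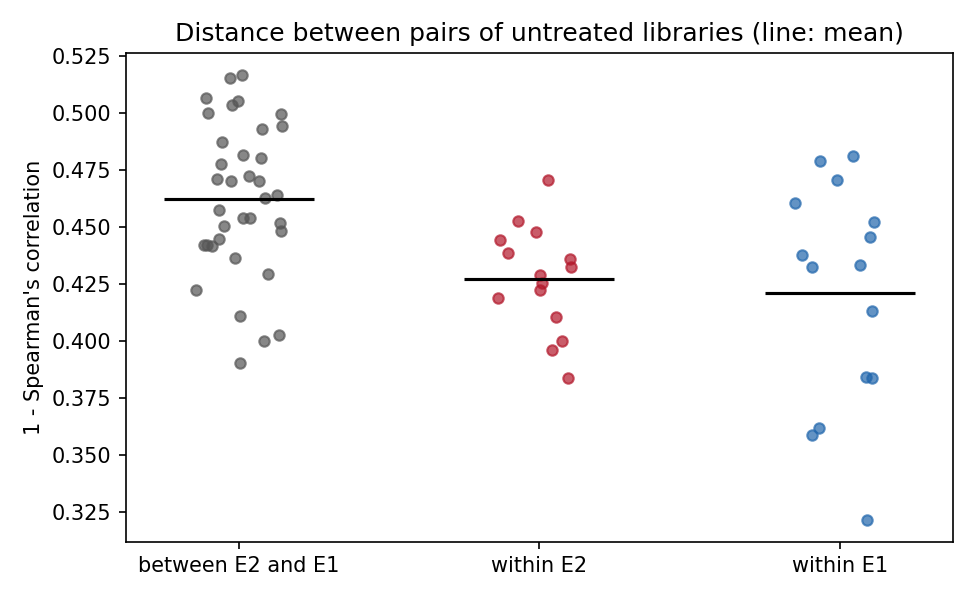
Distance between pairs of untreated libraries (1 minus Spearman's correlation, vertical axis) for pairs of an E2 and an E1 library, pairs of E2 libraries, and pairs of E1 libraries. Each point is a pair and each line a mean, 0.463 between the groups, 0.427 within E2, and 0.421 within E1. The 3 clouds of points overlap.

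Of 359416 contigs tested, 3703 (1.03%) differed between the groups by edgeR's quasi-likelihood test, with p adjusted by Benjamini-Hochberg (BH) under 0.05 and over 2-fold apart. There were 1046 contigs higher in E2 (0.291% of those tested) and 2657 higher in E1 (0.739%), or 28.2 and 71.8% of the calls. This balance moved with the scaling. With library totals in place of TMM factors, which moved the median log2 fold change of all contigs to -0.47 (0.02 with TMM), 566 contigs were higher in E2 and 5062 higher in E1, so that 10.1% of the calls were higher in E2. Under it, 565 of the 1046 and 2657 of the 2657 contigs were still called, and all of both lists kept their direction. The count higher in E2 also depended on single libraries, being 680 without the E2 library of snail 10, 634, 566, and 674 without the E1 libraries of snails 1, 3, and 4, and 636 and 676 without those of snails 5 and 6. DESeq2 and edgeR's exact test called 8054 and 8055 contigs in all. The count higher in E1 was between 1899 and 2408 when any 1 library was left out.

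The calls higher in E1 had the larger fold changes. The median log2 fold change (E2 over E1) was 2.86 for the contigs higher in E2 and -5.10 for those higher in E1. Many of the contigs higher in E1 had no count in the other group, 654 of 2657, against 47 of the 1046 higher in E2. With such contigs placed at their bound (3 counts over the whole group) the medians were 2.83 and -4.46. On that scale 888 contigs were more than 4-fold higher in E2 and 2565 more than 4-fold higher in E1, and 24 against 608 passed 64-fold. The smallest called log2 difference was 1.28 in size, so the fold threshold removed no call. Fitted fold changes of contigs with no count in one group are no bound. By the methods E1 contained the medial part, so RNA of that part could be present in E1 as well. No count in E1 was nevertheless seen for the 47 contigs named above. Whether the overlap in tissue bears on the difference in fold changes was not tested.

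**Figure D2:**
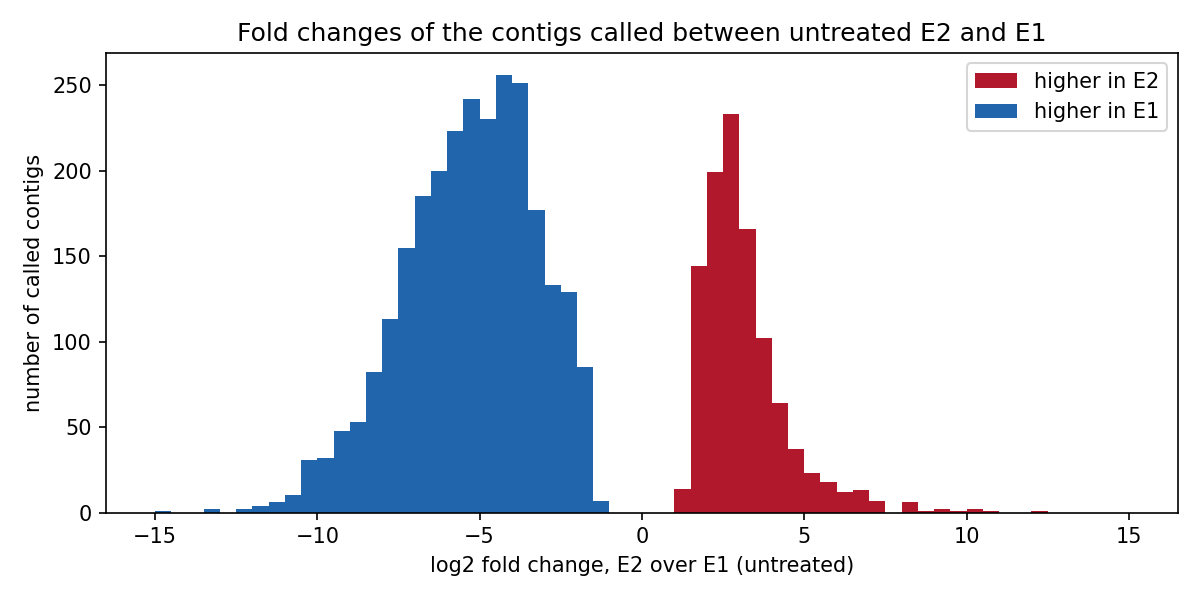
Number of called contigs (vertical axis) by fitted log2 fold change, E2 over E1 (horizontal axis), for the 1046 contigs higher in E2 and the 2657 higher in E1. Medians were 2.86 and -5.10. Contigs with no count in one group are drawn at fitted values that depend on the prior count.

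The balance of directions differed between classes of contigs by CPM. In the class with a mean level under 1 CPM, which held 288877 contigs, 0.0869% were called higher in E2 and 0.434% higher in E1. Between 10 and 100 CPM the shares were 2.90% higher in E2 and 3.63% higher in E1 of 8025 contigs. Among the 95 contigs at 1000 CPM or more, 21 were higher in E2 (22.1%) and 9 higher in E1 (9.47%), with a median log2 fold change of 1.69. Those 95 contigs held 37.0% of the counts in E2 controls and 23.4% in E1 controls. The share of calls grew with level in both directions, as did the number of counts behind each test. Of the 100 contigs highest in E2, 27 were called higher in E2 and 1 higher in E1. Of the 100 contigs highest in E1, 5 were called higher in E2 and 15 higher in E1. A ranking by the mean of one group favors contigs higher in that group, so these numbers are a description.

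**Figure D3:**
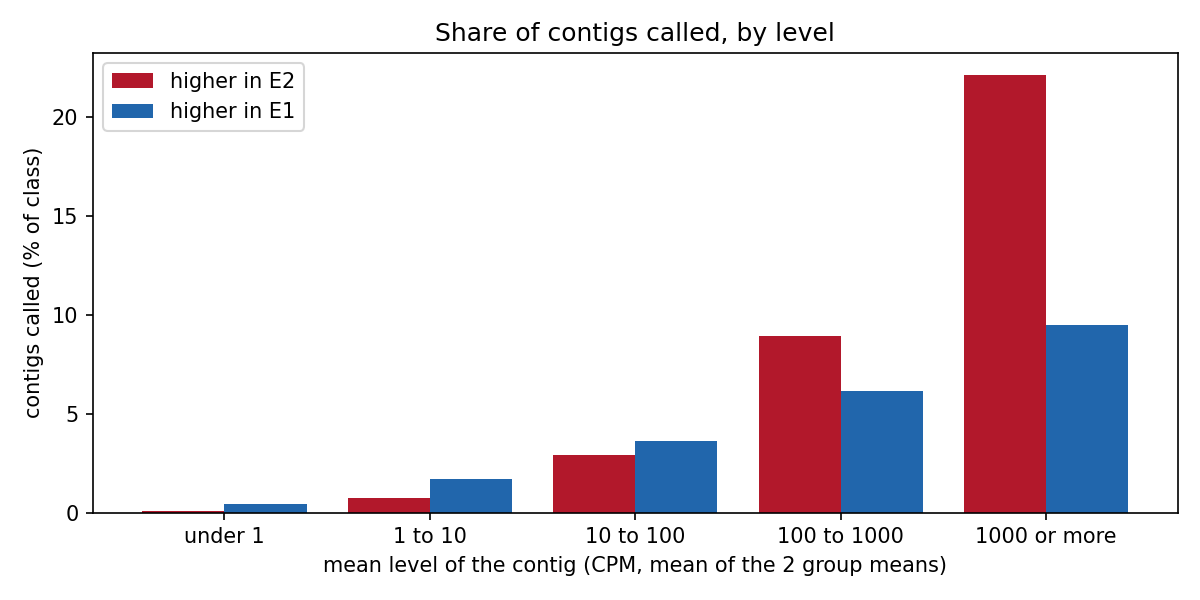
Share of contigs called (percent of the class, vertical axis) by mean level (CPM, mean of both group means, horizontal axis). The share higher in E1 is the larger below 100 CPM and the share higher in E2 the larger above it, 22.1% against 9.47% at 1000 CPM or more.

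A set of contigs had many counts in the E1 PaG and next to none in the medial part. Called contigs at 1 CPM or less in all 6 E2 libraries and at 10 CPM or more in all 6 E1 libraries numbered 82, with a median level of 0.0983 CPM in E2 controls and 31.8 CPM in E1 controls, and the reverse pattern was found for 0 of the called contigs. The number of contigs that reached 10 CPM in all 6 libraries was close in both groups, 4232 in E2 and 4170 in E1. Among those 4232 contigs 278 were called higher in E2 (6.57%), and among those 4170 contigs 294 were called higher in E1 (7.05%). Called contigs over 16-fold apart that reached 10 CPM in every library of the higher group numbered 11 for E2 (medians of 178 CPM in E2 and 8.47 CPM in E1) and 215 for E1 (0.590 CPM in E2 and 60.2 CPM in E1).

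The choice of those 215 contigs fixed that their level in E2 was low, and their values are given to show how the E2 libraries varied. Expressed as a percentage of the E1 mean, the median over the 215 was 0.737% in snail 8, 0.463% in snail 9, 0.365% in snail 10, 0% in snail 11, 0.153% in snail 12, and 0.366% in snail 13. Of the 210 that had a count in E2, 71 were highest in snail 8, 53 in snail 9, 44 in snail 10, 26 in snail 12, 9 in snail 13, and 7 in snail 11. The 11 contigs of the reverse set were at 1.06 to 7.79% of their E2 mean in the E1 libraries, highest in snail 4 for 9 of the 11. The E1 sample contained the medial part by the methods, and the share of E1 RNA that came from it was not measured.

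A count in all 6 libraries of one group and in none of the other was seen for 60 contigs of E2 and 545 of E1. Contigs with a count in all 6 libraries numbered 117257 in E2 and 99993 in E1, so these were few. At equal depth the numbers were 46 of 61305 for E2 and 796 of 75960 for E1. Both numbers at full depth depended on single libraries. The number for E2 was 91, 122, 135, and 136 without the E2 libraries of snails 8, 9, 11, and 12, and 166 and 138 without the E1 libraries of snails 1 and 4, and the number for E1 was 889 and 973 without the E1 libraries of snails 5 and 6. At full depth 75227 contigs had a count in all 12 libraries.

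Contigs called higher in E2 held 16.5, 16.8, 24.5, 15.4, 17.3, and 17.3% of the counts in the E2 libraries of snails 8 to 13, and 3.12 to 4.17% in the E1 libraries. Snail 10 stood above the other 5 E2 snails. Without the 3 of these contigs with the highest mean CPM in E2 the shares were 10.3 to 12.4% in E2 and 1.80 to 2.53% in E1, with snail 10 again the highest (12.4%, against 10.3 to 11.2% in the other 5 E2 snails). Contigs called higher in E1 held 0.212 to 0.425% of the counts in E2 libraries and 6.05 to 9.99% in E1 libraries. Both sets together held 15.7 to 24.7% in E2 and 10.0 to 13.1% in E1, and without those 3 contigs 10.6 to 12.6% in E2 and 8.08 to 11.9% in E1, which overlapped. These shares describe contigs chosen on the same libraries and were not tested.

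**Figure D4:**
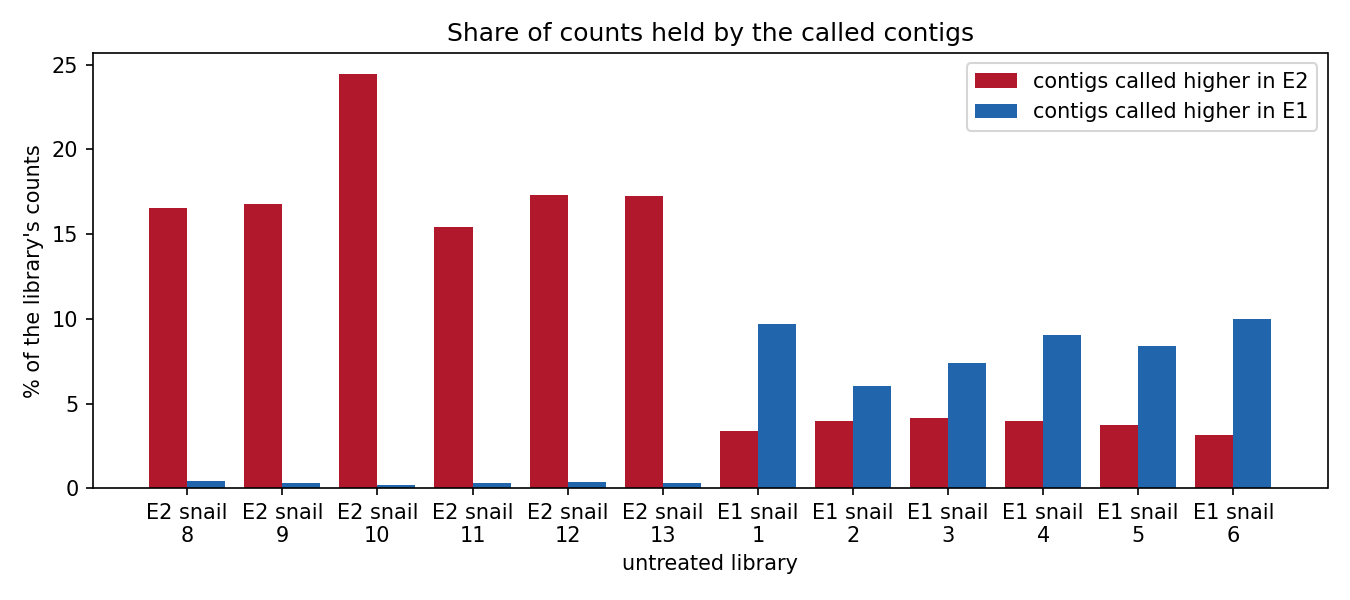
Percent of a library's counts held by the contigs called higher in E2 and by those called higher in E1 (vertical axis), in the 6 E2 and the 6 E1 control libraries by snail. The first set holds 15.4 to 24.5% in E2 libraries and 3.12 to 4.17% in E1 libraries, the second 0.212 to 0.425% in E2 and 6.05 to 9.99% in E1.

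The c-fos/fosl2 contig was the one called contig with a gene name. c-fos encodes a subunit of the transcription factor AP-1 and is a classical immediate early gene, transcribed within minutes of neuronal activity without new protein synthesis. In the untreated state it had 23.8, 30.8, 78.6, 9.53, 95.1, and 16.8 CPM in E2 snails 8 to 13, and 1.32, 8.70, 2.47, 12.5, 3.49, and 2.44 CPM in E1 snails 1 to 6. Levels in E2 were thus generally higher and spread over a wide range, with snails 10 and 12 at the top, and the groups overlapped because E2 snail 11 lay below E1 snail 4. Means were 42.4 ± 35.5 CPM in E2 and 5.16 ± 4.45 CPM in E1 (SD, n = 6 each), with a log2 fold change of 3.03 (SE 0.66, adjusted p = 0.037, edgeR's quasi-likelihood test). The call did not withstand the loss of most single libraries, with adjusted p between 0.0253 and 0.0918 and log2 fold changes between 2.62 and 3.44. The adjusted p passed 0.05 without E2 snail 9 (0.0519), 10 (0.0824), or 12 (0.0836), and without E1 snail 1 (0.0774), 2 (0.0535), 3 (0.0918), 5 (0.091), or 6 (0.089).

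The same contig in activated libraries, which the untreated comparison had not used, reached 105 to 285 CPM in E2 (median 153) and 35.7 to 96.2 CPM in E1 (median 46.4). There the groups did not overlap, and the log2 fold change was 1.67 (SE 0.39, adjusted p = 0.0429, edgeR's quasi-likelihood test). Whether the difference between E2 and E1 changed with activation was not tested.

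The 33 contigs upregulated by activation in both experiments under edgeR's exact test were also followed in the untreated state. They were selected with these same control libraries as the baseline, so their values are a description. By the quasi-likelihood test 0 of the 33 were called between E2 and E1 controls (18 had an unadjusted p below 0.05, and the exact test called 3), beside 1.03% called and 11.2% with an unadjusted p below 0.05 over all contigs tested. Their median level was 1.44 CPM in E2 and 0.566 CPM in E1. Their median log2 fold change was 1.45, with a range of -0.10 to 3.67, and the median of all contigs tested was 0.02. Of the 327 contigs upregulated in E1 by the exact test, 308 were tested, 47 were called higher in E2 and 0 higher in E1 by the quasi-likelihood test (239 had an unadjusted p below 0.05 in either direction, and the exact test called 116), and these were selected for a low level in the E1 controls. Of the 76 upregulated in E2, 65 were tested, and 0 were called higher in E2 and 1 higher in E1. These were selected for a low level in the E2 controls, which works against a call higher in E2. The numbers for the lists of 327 and 76 are therefore not comparable. An unadjusted p below 0.05 in either direction was found for 31, and the exact test called 7. The c-fos/fosl2 contig, called higher in E2 controls, was therefore in neither the list of 33 nor that of 76. Its E2 levels were 9.53 to 95.1 CPM in controls and 105 to 285 CPM in activated libraries.

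Among contigs whose groups did not overlap, 4 more are described, for each direction the one with the smallest p and the one with the highest mean CPM. Non-overlap was found for 748 of the 1046 contigs called higher in E2 and 2043 of the 2657 called higher in E1, and over all contigs tested for 0.570% (higher in E2) and 0.940% (higher in E1). The products of these 4 contigs are not known here.

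Contig 1200713 had the smallest p of the contigs higher in E2. It lay between 57.0 CPM (snail 11) and 84.0 CPM in E2 controls (median 79.5, mean 76.3 ± 9.94, SD, n = 6) and between 0.205 and 2.82 CPM in E1 controls (median 0.958, mean 1.17 ± 0.893, SD, n = 6). Its level was thus nearly the same in 5 of the E2 snails and low in all of the E1 snails. The log2 fold change was 5.96 (SE 0.51, adjusted p = 1.2e-05, edgeR's quasi-likelihood test). In activated libraries it was 5.50 (adjusted p = 3.58e-05, same test).

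Contig 130170 had the highest mean CPM of the contigs higher in E2. It had 24209 to 100169 CPM in E2 controls (median 39889) and 5428 to 12147 CPM in E1 controls (median 7793). Its E2 levels were uneven, with snail 10 far above the next E2 library at 47980 CPM. The log2 fold change was 2.49 (SE 0.52, adjusted p = 0.0288, edgeR's quasi-likelihood test), and 2.05 without snail 10 (adjusted p = 0.0537). The adjusted p also passed 0.05 without E2 snail 13 (0.052) and without E1 snail 1 (0.0857), 2 (0.0581), 3 (0.0601), 4 (0.0877), 5 (0.0883), or 6 (0.1), with log2 fold changes of 2.38 to 2.64. In activated libraries the log2 fold change was 2.24 (adjusted p = 0.076, same test). There the groups overlapped, with 9201 (snail 9) to 76630 CPM in E2 and 6700 to 9647 CPM in E1.

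Contig 1918442 had the smallest p of the contigs higher in E1. A single count was recorded over the 6 E2 control libraries, in snail 13 (0.0450 CPM), and 4490 counts over the 6 E1 control libraries, which had 37.3 to 54.6 CPM (median 46.9). The contig was thus near absent from the medial part and held at an even level in the E1 PaG. The ratio of E1 over E2 was 3311, with a 95% interval of 594 to 130826 that covers counting error only, and the adjusted p was 4.44e-07 by edgeR's quasi-likelihood test. In activated libraries it had 0 to 0.585 CPM in E2 and 34.9 to 61.5 CPM in E1 (adjusted p = 1.08e-05, same test).

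Contig 1148016 had the highest mean CPM of the contigs higher in E1. It had 1106 to 2492 CPM in E2 controls (median 1512) and 2699 to 8075 CPM in E1 controls (median 6234). The highest E2 library, snail 12, came close to the lowest E1 library, snail 2. The log2 fold change was -1.89 (SE 0.41, adjusted p = 0.0324, edgeR's quasi-likelihood test). The adjusted p passed 0.05 without E2 snail 8 (0.065), 10 (0.0527), or 11 (0.0557) and without E1 snail 1 (0.072), 3 (0.0676), 5 (0.0614), or 6 (0.0803), with log2 fold changes of -1.93 to -1.79. In activated libraries it was -1.91 (adjusted p = 0.0761, same test).

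**Figure D5:**
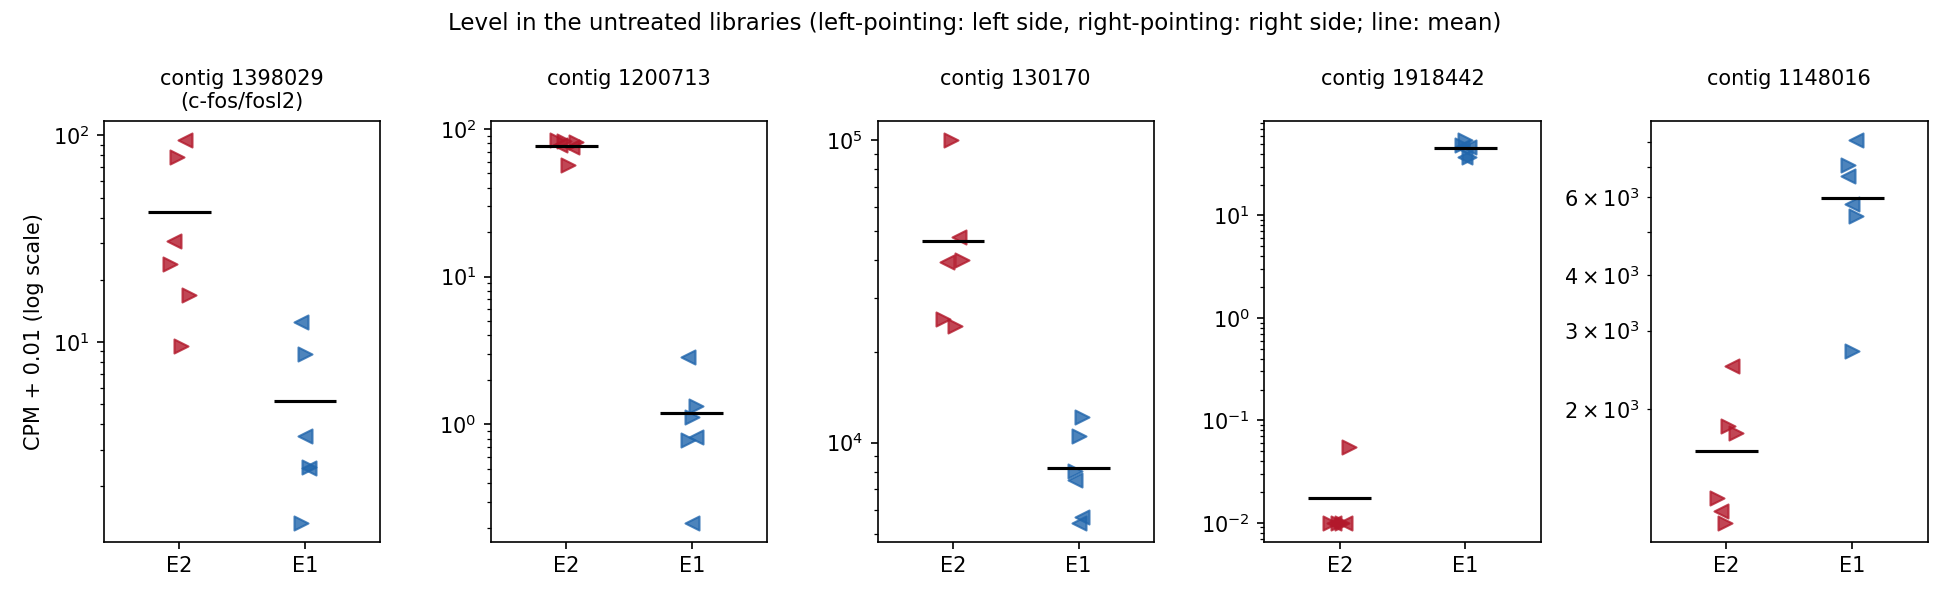
Level of 5 contigs (CPM plus 0.01, log axes that differ between panels) in the 6 E2 and the 6 E1 control libraries. Triangles point to the side of the body, and lines mark means of 42.4 and 5.16 CPM for the c-fos/fosl2 contig (E2 and E1). Only the c-fos/fosl2 contig overlaps between the groups, and contig 1918442 is at 0 in 5 of the 6 E2 libraries.

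The visceral ganglion was reported to adhere to the left E1 tissue only, so the contigs higher in E1 were examined by side. The left E1 controls were snails 4, 5, and 6, with 30664588, 3513906, and 3581307 counts. The right ones, snails 1, 2, and 3, had 35225724, 6367555, and 8759185. The smallest libraries were thus all on the left, and side cannot be told apart from depth or snail in the counts below. Of the 2657 contigs, 2451 were higher in all 3 right E1 libraries than in all 6 E2 libraries, and 2211 were higher in all 3 left ones. Over all contigs tested the shares were 3.41% (right) and 2.16% (left), and the 2657 were called on these same libraries, so their counts are a description. Within E1 controls, 149 of the 2657 (5.61%) were higher in all left than in all right libraries, against 2.50% of all contigs tested, and 236 (8.88%) were higher in all right than in all left libraries, against 5.45% of all. Their median log2 ratio of left over right was -0.07, as over all contigs (-0.07). With right libraries only (4 E2, 3 E1), 881 contigs were called, 106 higher in E2 and 775 higher in E1, by edgeR's quasi-likelihood test. With left libraries only (2 E2, 3 E1) 0 contigs were called by that test and 13234 had an unadjusted p below 0.05. The contigs of the full comparison that were tested on one side kept their direction, 1041 of 1041 higher in E2 and 2649 of 2649 higher in E1 on the right, and 935 of 935 and 2615 of 2615 on the left, in libraries that the full comparison had used.

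For the contigs higher in E2, 819 of 1046 exceeded all 3 right E1 libraries in all 6 E2 libraries, and 835 exceeded all 3 left ones. Over all contigs tested the shares were 1.26% (right) and 1.71% (left), and these contigs too were called on the same libraries. With side as a covariate 891 contigs were higher in E2 and 2352 higher in E1.

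The differences were also measured in the activated libraries of the same experiments, taken from the other side of mostly the same snails and scaled separately. Of 357765 contigs tested there, 991 were called higher in E2 (0.277%) and 3562 higher in E1 (0.996%). The activated E2 library of snail 9 was small, with 926483 counts and a TMM factor of 1.77. The other activated E2 libraries had 8172495 to 29646674 counts and factors of 0.659 to 0.916. Without snail 9 the count higher in E2 was 1247. This count was 567 and 641 without the E2 libraries of snails 10 and 11. Without those of E1 snails 1 to 6 it was 568, 577, 444, 544, 539, and 631. The sum of both counts was 2943 without E1 snail 3. Of the 1046 contigs higher in untreated E2, 1028 were tested in activated libraries, 1020 had the same direction, and 425 were called, which is 40.6% of the untreated list and 42.9% of the activated list. All 2657 contigs higher in untreated E1 were tested, 2651 had the same direction, and 1988 were called (74.8% of the untreated list and 55.8% of the activated list). No contig was called in opposite directions. Over the 322548 contigs tested in both states, 67.2% had the same direction. Median log2 fold changes in activated libraries were 2.24 for the contigs higher in untreated E2 and -4.69 for those higher in untreated E1. The lists were chosen on the untreated libraries, and the 2 states share snails and experiments, so the tissue cannot be told apart from the snails here either.

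Among contigs with many counts in both groups, levels in the medial part were spread more from snail to snail. Across the 1384 contigs with a mean of at least 50 CPM in both groups, the median SD of log2 CPM was 0.609 in E2 controls and 0.495 in E1 controls, and the SD was larger in E2 for 68.2% of them. This is a description across contigs, which are not independent replicates, and it was not tested over snails. The mean distance between libraries was close in both groups, 0.427 within E2 and 0.421 within E1. Which of them was larger depended on single libraries (0.427 and 0.438 without E1 snail 1). The highest libraries were not spread evenly over the snails. Of the 1046 contigs higher in E2, the highest E2 library was that of snail 10 for 290, of snail 12 for 257, and of snail 11 for 169. It was that of snail 13 for 158, of snail 8 for 116, and of snail 9 for 56. The TMM factors of these libraries were 0.722, 0.682, 0.826, 0.791, 1.00, and 0.962 in that order. The same counts were not made over all contigs tested, and whether scaling or depth bears on them was not tested. Of the 2657 contigs higher in E1, the highest E1 library was that of snail 1 for 772 and of snail 4 for 638, the 2 deepest libraries, and the others had 299 to 332 each.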

How the data were processed

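RNA-seq reads had been trimmed with cutadapt (version 1.11), mapped to a de novo SOAPdenovo-Trans assembly with Bowtie (1.0.0), and quantified with RSEM (1.2.18). The authors deposited expected counts for 693041 contigs per library, with no normalization. Reads whose origin is ambiguous between similar contigs are divided by RSEM, so levels of near-identical contigs are uncertain. The labels give polyadenylated RNA, and the methods name a kit that depletes ribosomal RNA. Contig lengths, annotation, and sequences were not used here.

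Samples were grouped by their labels. Estimated counts were rounded, contigs with a total above 10 over the 12 libraries were kept (359416), and counts were scaled by TMM and tested with edgeR 4.0.16 (R 4.3.3) by the quasi-likelihood test, with calls made under a BH adjusted p of 0.05 and over 2-fold. The study stated no test for this comparison. The count filter and thresholds are those of its methods, whose exact test was run as an alternative. Detection was compared after thinning to the smallest total. The replicates are separate snails. Single values were compared by exact permutation tests over all groupings of 6 and 6 libraries. Other alternatives were DESeq2 1.42.0, limma-voom (limma 3.58.1), other scalings, filters, sides, and leaving out each library. Scripts were tested on simulated data.

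The contigs described are the c-fos/fosl2 contig and, for each direction, among called contigs whose groups did not overlap, the one with the smallest p and the one with the highest mean CPM in the higher group. Members, lists, and tests were chosen with earlier results of these data known. The 24 libraries with counts came from 13 snails, and 11 samples that served only for assembly were not used.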

Additional observations from a re-analysis of the deposited data

Results flagged for a closer look

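A library that stood apart from the other 5 of its group was looked for with Dixon's test in 26 groups of values, of which chance alone would pick about 1 in 20 (1.3 groups). It found 4. The contigs called higher in E2 held 24.5% of the counts of the E2 library of snail 10, against 17.3% in the next library and 15.4% in the lowest. Contig 130170 was at 100169 CPM in the same library, against 47980 CPM in the next, and this contig is among those called higher in E2. Contig 1200713 was at 57.0 CPM in the E2 library of snail 11, against 75.8 CPM in the next. Contig 1918442 was at 0.0450 CPM in the E2 library of snail 13, a single read, and at 0 in the other 5. With the other 5 at 0, any read would have been picked. Without the E2 library of snail 10, 680 contigs were called higher in E2.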

How the results depend on the processing

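No paired analysis was possible because no snail gave a library to both groups. The total of 3703 calls was 8054 with DESeq2, 8055 with the exact test, 5832 with limma-voom, 5628 with library totals, 881 with right libraries only, and 0 with left libraries only. Contigs higher in E2 (1046) numbered 3053 with DESeq2, 2908 with the exact test, 566 with library totals, 106 on the right, 0 on the left, and 409 without E1 snails 5 and 6, the shallowest libraries (chosen after seeing the data). Contigs higher in E1 (2657) numbered 5001 with DESeq2, 5147 with the exact test, 4319 with limma-voom, 5062 with library totals, 1665 with a filter of at least 1 CPM in 6 libraries, 775 on the right, and 0 on the left. Of the calls, 28.2% were higher in E2, 10.1% with library totals, 41.4% with the 1 CPM filter, 12.0% on the right, and 16.3% without E1 snails 5 and 6. The exact test called 1046 of the 1046 and 2657 of the 2657 contigs, and DESeq2 1024 and 2638. The fits on one side have fewer libraries, and for the other counts the cause was not tested.

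The log2 fold change of the c-fos/fosl2 contig (3.03) was 2.41 with library totals (adjusted p = 0.0604), 3.41 on the left (0.33), 2.89 on the right (0.391), and 2.76 without E1 snails 5 and 6 (0.193), all by edgeR's quasi-likelihood test. Without replicate libraries 1 at a time it was 2.62 to 3.44. Contigs 130170 and 1148016 lost their call under 12 and 10 of 27 alternatives, and contigs 1200713 and 1918442 under 1, left libraries only. Direction was the same throughout for all 5.

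Leaving out 1 library gave 2534 to 3270 calls, 566 to 980 higher in E2, and 1899 to 2408 higher in E1. In activated libraries (4553 calls) it gave 2943 to 4282, 444 to 1247 higher in E2, and 2499 to 3143 higher in E1, with the lowest total without E1 snail 3. DESeq2 called 9218 there (3245 higher in E2, 5973 higher in E1), and the exact test 9516 (2289 higher in E2, 7227 higher in E1). The difference in contigs detected was -35976 to -26712 with 1 library left out and -12727 without thinning, that in the share of the top 100 contigs 13.3 to 15.01 points, and that in distance 0.0354 to 0.0415. Contigs in one group only numbered 69 to 166 for E2 and 567 to 973 for E1 with 1 library left out. Depth limits the contigs under 1 CPM, 288877 of 359416.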
